A study of Homo sapiens with 3 samples.

Results

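The regions described here are 228 clusters of H3K27ac peaks that carry no H3K4me3, in chromatin of HCC1599, a long-established line of breast cancer cells of the triple-negative kind, which lack estrogen receptor, progesterone receptor and HER2 amplification. H3K27ac peaks on chromosomes 1 to 22 that overlapped no H3K4me3 peak by even 1 bp were taken, those less than 12500 bp apart were joined, and groups of 8 or more peaks were kept. Of 71043 autosomal H3K27ac peaks, 46359 (65.3%, 64.9 to 65.6) overlapped no H3K4me3 peak. These fell into 28679 groups, single peaks included, and the 228 clusters held 2340 of them (5.05%, 4.85 to 5.25). The series has 3 samples of the line, whose cells its design text calls MARCO-TST positive: chromatin immunoprecipitated with an antibody to H3K27ac, the same with an antibody to H3K4me3, and an input without antibody. All 3 come from the same line with no treatment named, so a cell line stands for a tumour here and other cell types of a tumour are not represented. Each mark was measured in 1 library, so no value can be checked against a repeat, and no test was made. Ranges after shares are exact Clopper-Pearson 95% intervals, which allow for counting error alone, as if neighbouring peaks or genes were independent. The clusters were selected on the called peak positions of both marks, so their spans, counts and covered lengths are a description. Scores and widths of their peaks come from the same H3K27ac library.

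H3K27ac, acetylation of lysine on the tail of histone H3, is found at active promoters and at active enhancers, whereas H3K4me3 is concentrated at the starts of transcribed genes. H3K27ac away from H3K4me3 is therefore commonly used to find candidate enhancers, and joining such sites over distances of this size is a common first step in looking for the large enhancer clusters that lie around genes of cell identity. That step is usually followed by ranking on read signal, which the peak lists used here do not hold, and the clusters are called clusters and nothing more.

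Sequence under the clusters is shown here at the places where the reference tables used here hold it, which are promoter windows and miRNAs. Of 15100 protein-coding promoter windows, each from 250 bases before to 50 bases after an annotated start, 4 lay under a peak of a cluster, and the 3 that lay wholly within 1 peak are printed because these windows carried H3K27ac without H3K4me3. An annotated start is here the 1 start per gene that these windows use, which need not be the outer end of the gene. It is the outer end for TC2N, whereas the windows of EPHX3 and SYNJ2 lie inside the gene. SYNJ2 carried both marks within 1 kb of its outer ends, each mark called at either end. They are read 5′ to 3′ on the strand of the gene (RefSeq, GRCh38.p14), and capitals mark matches to the TEAD motif CATTCC in the first and to the RUNX motif TGTGGT, or its reverse complement, in the second; the third held none of the 8 motifs searched.
EPHX3 (chr19:15232919-15233218, minus strand): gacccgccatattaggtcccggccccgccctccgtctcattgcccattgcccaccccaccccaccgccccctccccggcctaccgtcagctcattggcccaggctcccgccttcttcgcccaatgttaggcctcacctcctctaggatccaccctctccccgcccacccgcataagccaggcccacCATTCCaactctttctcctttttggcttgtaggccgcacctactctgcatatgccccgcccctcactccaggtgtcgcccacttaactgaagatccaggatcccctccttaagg
TC2N (chr14:91867487-91867786, minus strand): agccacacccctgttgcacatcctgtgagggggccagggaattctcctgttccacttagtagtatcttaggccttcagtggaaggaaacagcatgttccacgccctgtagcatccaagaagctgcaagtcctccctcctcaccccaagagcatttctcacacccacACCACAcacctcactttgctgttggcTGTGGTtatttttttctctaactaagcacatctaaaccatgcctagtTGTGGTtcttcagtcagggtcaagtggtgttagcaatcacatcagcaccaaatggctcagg
SYNJ2 (chr6:158016843-158017142, plus strand): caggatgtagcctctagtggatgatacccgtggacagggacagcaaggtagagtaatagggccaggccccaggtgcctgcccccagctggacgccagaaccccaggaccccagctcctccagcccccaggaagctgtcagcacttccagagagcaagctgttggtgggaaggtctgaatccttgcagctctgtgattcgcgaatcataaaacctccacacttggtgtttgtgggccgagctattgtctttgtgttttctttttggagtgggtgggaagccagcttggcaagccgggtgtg
The miRNAs are shown because 2 conserved miRNA loci, let-7g and the group of miR-23b, miR-27b and miR-24, lay inside clusters; the capitals are the seed, bases 2 to 8 of the mature miRNA, which pairs with target transcripts (RefSeq, GRCh38.p14).
hsa-let-7g-5p: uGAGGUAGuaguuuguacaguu
hsa-miR-23b-3p: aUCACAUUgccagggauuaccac
hsa-miR-27b-3p: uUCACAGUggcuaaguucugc
hsa-miR-24-3p: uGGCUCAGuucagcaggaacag

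The clusters were long and mostly open. Their median span was 40980 bp (interquartile range 33857.5 to 54038.2), with the shortest, 15587 bp, at TCF7. The median length that their peaks covered was 11902.5 bp (9604.5 to 15188.5), with the least, 4364 bp, at ARID5B. The peaks covered a median of 28.3% of the span, between 12.53% and 68.6%. Together they covered 3.02 Mb of a summed span of 10.3 Mb, which was 6.64% of the 45.5 Mb covered by all autosomal H3K27ac peaks without H3K4me3. Most clusters were near the minimum size, with 72 of exactly 8 peaks and 58 of 9, and among the largest counts were 25 peaks at LIMK2, 22 at ARHGEF10L and 20 at FARP1. Clusters of long span differed in how much of it was covered. FARP1 had 30114 bp covered within 102977 bp, DIP2B and PLEKHA7 had clusters of 107606 bp and 93118 bp of which 15% and 12.53% were covered, and NFIX had 32058 bp covered within 56598 bp.

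**Figure D1:**
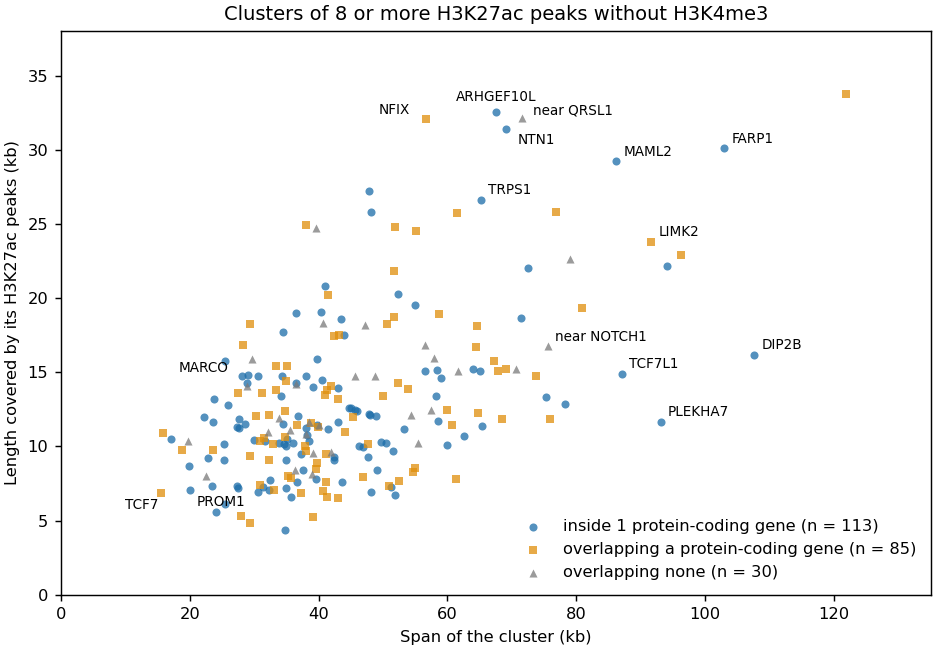
Each point is 1 of the 228 clusters, with its span in kb on the horizontal axis and the length covered by its H3K27ac peaks in kb on the vertical axis; colour and shape give its position relative to protein-coding genes, and some clusters are named by the gene that holds most of their peaks or lies nearest. NFIX has 32058 bp covered within 56598 bp, DIP2B spans 107606 bp with 15% covered, and the median cluster spans 40980 bp with 11902.5 bp covered.

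Within a cluster, a few strong peaks stood among weak ones. The authors' deposited score, which ranks peaks within the list, had a median of 61.0 for the 2340 clustered peaks (interquartile range 39.5 to 153) and 46.1 for the 44019 other H3K27ac peaks without H3K4me3 (35.9 to 82.4). Scores of 100 or more were held by 33.4% (31.5 to 35.4) of the clustered peaks and 20.7% (20.3 to 21.1) of the others, beside 21.4% over both, and scores under 50 by 40.8% and 55.7%. The clustered peaks were also wider, with a median of 881 bp against 640 bp. Smaller groups shared both traits. In groups of 4 to 7 peaks the median width was 860 bp and 32.9% of peaks scored 100 or more. Groups of exactly 7 had a median width of 909.5 bp. Single peaks had 573 bp and 12.8%. A cluster held a median of 3 peaks scoring 100 or more, between 0 and 10. The strongest peak of a cluster had a median score of 667, and the lowest was 57.7 at CDC123. It reached 1000 in 87 clusters and 3100 in 18. The strongest of these 18 was at PDE4B, with 3221.6. The others were tied at 3100 and cannot be ordered by strength. A score of 3100 is a repeated value and not the maximum, as peaks outside the clusters scored up to 3228.29. At the weak end, 7 clusters had no peak of 100 or more (CDC123, CYTH3, PGBD5, KHDRBS1, KIAA1671, ARID5B and DIDO1, named after their values were seen). The widest peak made up a median of 24.3% of the covered length, and 50% or more in 3 clusters. Neighbouring peaks lay a median of 2168.5 bp apart. Of the 2112 gaps, 609 were under 500 bp and 613 were 5 kb or more.

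**Figure D2:**
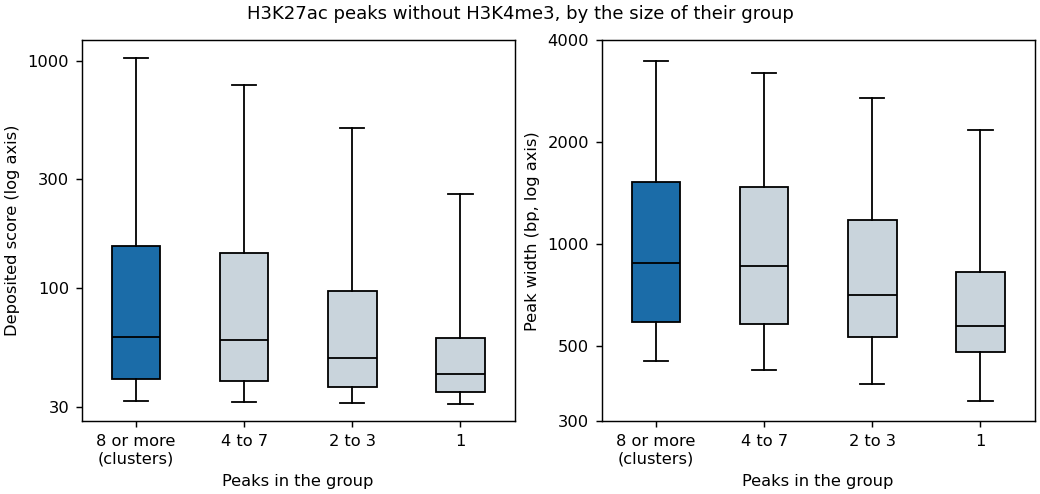
Deposited score (left) and width in bp (right) of H3K27ac peaks without H3K4me3, both on log axes, by the number of peaks in their group; boxes are quartiles with the median, and whiskers run from the lowest to the highest 5%. The median score is 61.0 in clusters, 58.7 in groups of 4 to 7 peaks, 49.0 in groups of 2 to 3 and 41.65 for single peaks.

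Groups on either side of the minimum of 8 peaks had similar values. The 72 groups of exactly 8 peaks, just inside, had a median span of 34918 bp and 9882.5 bp covered, and their peaks had a median score of 63.02. The 134 groups of exactly 7, just outside, had 29740.5 bp, 8726 bp and 61.9. Of the groups of 8 peaks, those with most covered length were at CUEDC1 (27260 bp), ANPEP (24940 bp), PKP1 (21864 bp), EVA1C (19038 bp) and KCNK5 (18725 bp). The gene itself held 100% of that length at CUEDC1 and EVA1C, 62.1% at KCNK5, 45.5% at PKP1 and 22.9% at ANPEP. Of the groups of 7, they were at SDC1, which encodes the proteoglycan syndecan 1 (22308 bp), beside SNX13 (19600 bp), at BAIAP2 (16302 bp), beside AOPEP (15971 bp) and at IQCE and TTYH3 (15427 bp). The number of clusters rests on weak peaks and on the joining distance: it was 31 with only H3K27ac peaks scoring at least 50, 3 with a score of at least 100, and 33 with a joining distance of 5 kb.

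Of the clusters with the largest covered lengths, that of ARHGEF10L, a gene of a guanine nucleotide exchange factor, held 22 peaks covering 32539 bp (chr1:17535345-17602861), the strongest 6919 bp wide with a score of 3100, and its annotated start, which is not the outer end of the gene, lay within the cluster. This cluster and the one beside QRSL1 (chr6:106723335-106794891, 13 peaks, 32116 bp covered), which overlapped LINC02532 and MIR587 and lay 54918 bp from that gene, were found again under each of the 8 stricter settings tried. The cluster at NFIX, a nuclear factor I gene, had 9 peaks covering 32058 bp, 1 of them 11860 bp wide (chr19:13065594-13122191), and 90.8% of the covered length lay in NFIX. NTN1, the gene of the guidance cue netrin 1, held 16 peaks covering 31377 bp and no H3K4me3 peak within the span (chr17:9151280-9220430). FARP1 held 20 covering 30114 bp, and MAML2, a Notch coactivator gene, 14 covering 29248 bp.

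Strength and covered length did not always go together. TRPS1, a GATA-type transcription factor gene of breast epithelium, had 10 peaks covering 26643 bp, the ninth largest amount, yet its strongest peak scored 177, which placed it 194th of 228 by strongest peak. CUEDC1, with 8 peaks and 27260 bp covered, had 7 peaks scoring 100 or more and a strongest of 2189. PTPRF, a receptor tyrosine phosphatase gene, had 25819 bp covered in 11 peaks with a strongest score of 2964. URB1, a ribosome biogenesis gene, had 25807 bp in 13 peaks, and DNAJB12, a cochaperone gene, was overlapped by a cluster of 25740 bp in 11 peaks, 32.8% of it in the gene. Clusters at or across ANPEP (aminopeptidase N), MAP3K9 (a mixed lineage kinase), IRF2 (an interferon regulatory factor), LIMK2 (a kinase of cofilin), PLEKHA7 (an adherens junction protein), SEPTIN9 (a septin), CELSR1 (a planar polarity cadherin), PKP1 (plakophilin 1 of desmosomes), RANGAP1 (the GTPase activator of Ran), IGF1R (the insulin-like growth factor receptor) and SPNS2 (a sphingosine 1-phosphate transporter), and clusters nearest BDH1 and IER3, were also among the 25 largest, with 24940 to 20188 bp covered.

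**Figure D3:**
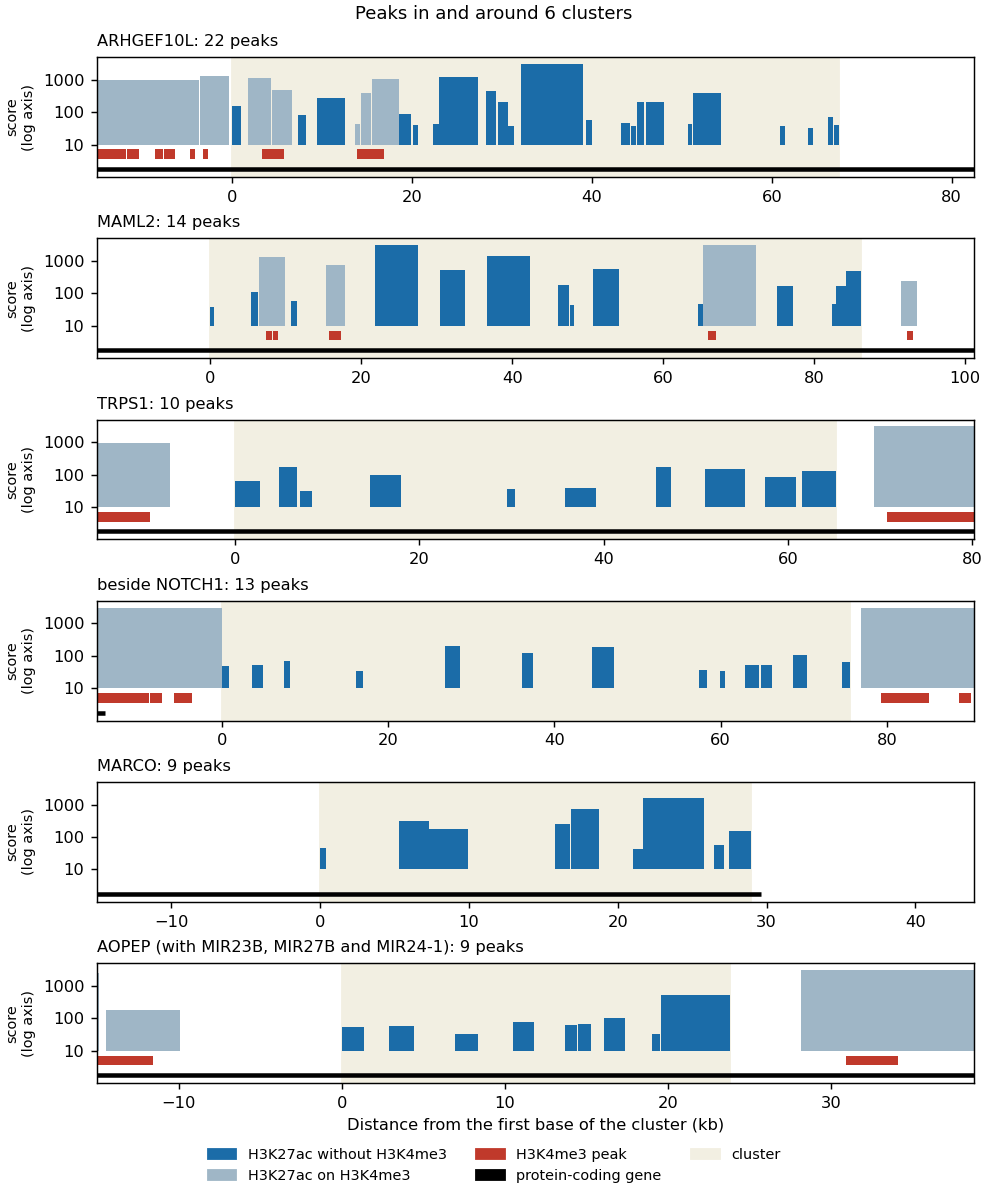
Peaks in and within 15 kb of 6 clusters, as distance in kb from the first base of the cluster; bar height is the deposited score on a log axis starting at 10, dark blue bars are H3K27ac peaks without H3K4me3, pale bars are H3K27ac peaks on H3K4me3, red marks are H3K4me3 peaks, and the black line is the protein-coding gene. ARHGEF10L shows 22 peaks with 9 of 100 or more, the TRPS1 peaks stay at or below 177, and the MARCO cluster has no H3K4me3 peak in the window.

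Although each peak of a cluster lacked H3K4me3, most clusters had it in their gaps. At least 1 H3K4me3 peak lay between the peaks of 149 of the 228 clusters (65.4%, 58.8 to 71.5), with 1 in 50 clusters, 2 in 42, 3 in 29 and 4 or more in 28, up to 8 at DIP2B. In 148 clusters the span also held an H3K27ac peak on H3K4me3, which the rule had left out. The 362 H3K4me3 peaks in these gaps had a median score of 112 and a median width of 1151.5 bp, against 608 and 1682 bp for the 30712 other autosomal H3K4me3 peaks. They lay within 1 kb of an end of a gene of any kind in 19.1% (15.1 to 23.5) of cases, against 51.8% for the others. An H3K4me3 peak in a gap had to fit between clustered peaks closer than the joining distance without touching either, which limits its width. The widest H3K4me3 peak in a gap was 8752 bp, against 38262 bp among the others. How much of the differences in score, width and closeness to gene ends follows from this limit was not tested. An H3K27ac peak overlapped 343 of the 362 (94.8%), against 71.1% of the others and 71.4% of all. The spans were chosen for holding H3K27ac peaks of the same library, so this share is not independent of the rule. Breaking the groups wherever an H3K4me3 peak lay between neighbours left 120 clusters.

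The other 79 clusters had no H3K4me3 in their span, and their nearest H3K4me3 peak lay a median of 5158 bp away (interquartile range 2384.5 to 16654.5); it lay within the joining distance in 52 of them and beyond 50 kb in 3. The cluster farthest from H3K4me3 was that of MARCO, the scavenger receptor gene of macrophages named in the title of the series (chr2:118965046-118994011), at 81649 bp. With 9 peaks and 14796 bp covered it ranked 64th of 228 by covered length, 50th by strongest peak (1661) and 196th by span. SPNS2 and IGF1R, in contrast, had H3K4me3 78 bp and 364 bp from the edge of their clusters.

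Most clusters overlapped a gene. A protein-coding gene was overlapped by 198 of the 228 (86.8%, 81.8 to 90.9), and 113 (49.6%, 42.9 to 56.2) lay wholly inside 1 gene. Any contact with the span counts as overlap, as at RPL3, which held 3.09% of the covered length of its cluster. In 126 clusters (55.3%, 48.6 to 61.8) a protein-coding gene held 90% or more of the covered length. The share for other regions of like span was not computed. Of the 30 clusters that overlapped no protein-coding gene, 20 overlapped a noncoding gene or pseudogene and 10 no annotated gene. By peaks, 76.5% (74.7 to 78.2) of the clustered ones and 54.8% (54.3 to 55.2) of the others overlapped a protein-coding gene. Of the clustered peaks 81.2% (79.5 to 82.7), and of the others 81.5% (81.1 to 81.8), had no annotated gene end within 2.5 kb. The clusters overlapped 247 of 19122 protein-coding genes (1.29%), and in 244 of these a peak of the cluster lay in the gene. The overlapped genes were longer and had a median length of 70478 bp against 24089 bp for the others. A longer gene can be overlapped more often by its length alone, and this was not tested. The share overlapped was 0.263% of genes under 10 kb, 1.03% at 10 to 50 kb, 1.93% at 50 to 100 kb, 3.26% at 100 to 200 kb, 3.09% at 200 to 400 kb and 2.37% at 400 kb or more.

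The genes overlapped mostly carried both marks near their ends. Each mark was called at either outer end of the gene, so both could lie at opposite ends. Within 1 kb of either end, 204 of the 247 (82.6%, 77.3 to 87.1) had both H3K27ac and H3K4me3, against 58.2% (57.4 to 58.9) of the 18875 others and 58.5% of all. Among genes of 50 kb or longer the shares were 84.3% (77.6 to 89.7) and 61.5% (60.2 to 62.7). H3K4me3 alone was at 7 overlapped genes, among them PDE4B, a phosphodiesterase gene, and NAV2, and neither mark was at 8, among them PTPRF, PALLD and ARHGAP29. The annotated starts of PTPRF and ARHGAP29 lie inside the outer end, so these calls do not describe their starts. H3K27ac alone was at 28 (11.3%, 7.67 to 16) against 3.11%; a cluster that reaches a gene end puts H3K27ac there by the rule itself. MARCO, TGFBR3, TCF7, PRKCH, which encodes a protein kinase C, and ANPEP were among the 28. The annotated starts of TGFBR3, TCF7 and PRKCH lie inside the outer end. On promoter windows at the annotated start, H3K27ac alone was at 6 of 199 overlapped genes (3.02%), against 1.3% of 14901 others. On the same windows both marks were at 78.9% against 55.5%, and neither at 11.6% against 29.9%. Where the promoter table gave the strand, 98 clusters inside a gene could be placed along it. Their centres lay at a median of 57.3% of the way from the 5′ outer end of the gene to the other (interquartile range 36.1 to 71.4), and 39 of 98 (39.8%, 30 to 50.2) lay before 50%. The annotated start, which in some genes lies inside that outer end, was a median of 32185.5 bp from the nearest edge of the cluster. In genes of 50 kb or longer, the first 20% of the gene held 13.6% of 1177 clustered peaks and 19.7% of 15242 others, and the last 20% held 24.2% and 20.1%. H3K27ac peaks at a start that overlap H3K4me3 are in neither number.

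**Figure D4:**
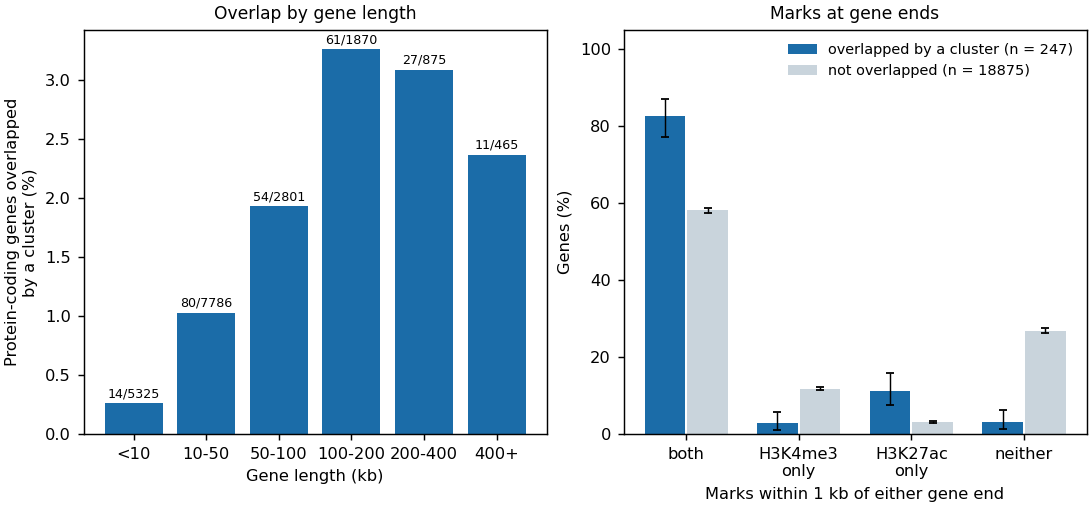
Left, the share in percent of protein-coding genes overlapped by a cluster, by gene length in kb, with the number overlapped over the number of genes above each bar. Right, the share of genes with each combination of marks within 1 kb of either end, for the 247 genes overlapped by a cluster and the 18875 not overlapped, with 95% intervals; both marks are at 82.6% and 58.2%.

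Of 363 autosomal genes in 17 lists of pathways and cell types, 20 were overlapped by a cluster (5.51%, 3.4 to 8.38), beside 1.29% of all protein-coding genes and 2.55% of those of 50 kb or longer. The lists and their members were chosen with earlier results of these data known, so this share and its interval cannot be read as enrichment. The counts below are descriptions of lists of unequal gene lengths, and no list was tested.

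Integrin and cytoskeleton genes had 5 of 29 overlapped; 23 of the 29 are 50 kb or longer. Among these were ACTN1 (alpha-actinin 1, 11 peaks covering 10369 bp), MYH9 (nonmuscle myosin heavy chain, 8 peaks, 11659 bp), ANXA2 (annexin A2, 8 peaks, 10503 bp) and PALLD (palladin, 9 peaks, 6573 bp). Their strongest peaks scored 1058, 1293, 168 and 108. The annotated starts of ACTN1 and MYH9 lay 10065 bp and 24412 bp from clusters centred at 24.6% and 33.9% of the gene. Those of ANXA2 and PALLD lay 32994 bp and 272090 bp from clusters centred at 81.7% and 67.2%. The ANXA2 cluster had an H3K4me3 peak 64 bp from its edge, the shortest distance among clusters with none inside.

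WNT and TGF-beta pathway genes had 5 of 42 overlapped. Of the 42, 23 are 50 kb or longer, and 4 of the 5 overlapped genes are among these. TCF7L1, TCF7L2 and TCF7 encode transcription factors that act with beta-catenin: TCF7L1 held 17 peaks over 87122 bp with 14900 bp covered, TCF7L2 held 8 covering 13414 bp, and the TCF7 cluster, the shortest of all with 15587 bp, had 6 of its 8 peaks in the gene and also overlapped SKP1. SMAD6, an inhibitor of BMP signalling, held 8 peaks covering 17542 bp with a strongest score of 1532, and no H3K4me3 lay within 27741 bp. TGFBR3, the gene of a coreceptor of TGF-beta, held 8 peaks covering 14282 bp with a strongest score of 1731.

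Of 40 epithelial and mammary transcription factor genes, TRPS1, NFIX and STAT3 were overlapped; the STAT3 cluster of 13 peaks, 8 of them in the gene, also reached CAVIN1. Of 28 Notch pathway genes, MAML2 was overlapped, and NOTCH1 was the gene nearest to another cluster. This cluster (chr9:136560143-136635671) held 13 peaks covering 16771 bp and began 14095 bp from the annotated start of NOTCH1, on the side from which the gene is read. Its peaks scored between 33.5 and 195, it overlapped LINC01451, and it contained no H3K4me3. HCC1599 is known for a rearranged NOTCH1, so distances in this line may differ from those in the reference genome. MAML2 held a second cluster of 12 peaks covering 18650 bp, 12947 bp from its annotated start, besides the one of 14 peaks at 227342 bp.

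In the remaining lists single genes were overlapped. They were PROM1, which encodes CD133, among 9 luminal progenitor genes (8 peaks, 7087 bp), PKP1 among 28 junction genes, IGF1R among 30 receptor tyrosine kinase genes (11 peaks, 20247 bp, 6800 bp from the annotated start), CDK6, a G1 kinase gene, among 26 driver genes (10 peaks, 14023 bp), and MAFF among 25 Hippo and AP-1 genes, where 102 bp of a peak of the TMEM184B cluster lay in the gene. No cluster overlapped any of the 20 basal, 15 luminal hormone, 12 mesenchymal, 13 housekeeping, 11 fibroblast, 15 lymphocyte or 12 endothelial genes. Over all protein-coding genes the share was 1.29%, and none in a list of this size is near that share. The lymphocyte, housekeeping and luminal hormone genes are also short (medians of 10818 bp, 6629 bp and 13189 bp). Of 15 macrophage genes MARCO alone was overlapped.

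Some genes were overlapped by several clusters. ETV6, an ETS family repressor gene, was overlapped by 3, with 29 peaks covering 32616 bp over 222440 bp, and 9 genes by 2: MAML2, SEPTIN9, PLEKHA7, MAP3K9, DIP2B, AOPEP, NAV2, SASH1 and FOXK2, a forkhead gene. The 2 clusters of PLEKHA7 held 34 peaks and those of MAML2 covered 47898 bp. The larger cluster at MAP3K9 had 2 of its 13 peaks, and 18.6% of its covered length, in the gene. In all, 51 clusters (22.4%, 17.1 to 28.3) lay less than 200 kb from another, in 25 stretches. Some stretches crossed genes: URB1 and EVA1C on chromosome 21 had 21 peaks covering 44845 bp within 190278 bp, and the clusters beside QRSL1 and CD24 on chromosome 6 had 23 covering 43759 bp.

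The 30 clusters that overlapped no protein-coding gene lay a median of 34694.5 bp from the nearest, between 612 bp at SMTN and 332371 bp at ACTBL2. Of these nearest genes 22 carried both marks near their ends, each mark called at either end. The start was annotated for 25, and 11 of these clusters were on the side of the start. Besides NOTCH1, the clusters on the start side included those nearest MYO10, a myosin gene, at 44134 bp, ENO1, an enolase gene, at 6413 bp, and TNFAIP3, an inhibitor of NF-kappaB signalling, at 135923 bp from the annotated start. CD47 (9 peaks, 16811 bp covered), the gene of a surface protein that restrains phagocytosis, had a cluster 34955 bp from its far end. A cluster of 9 peaks and 11438 bp overlapped CDKN2B-AS1, a noncoding RNA gene. The start of its nearest protein-coding gene, CDKN2B, was 69551 bp from the cluster.

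The miRNAs printed above lay in 2 of the clusters. Counted through their mature miRNAs, 13 hairpins lay in a cluster span, beside 1461 autosomal miRNA hairpins in all. Of these 13, 3 lay under a peak of the cluster. MIR3680-2 and MIR548S, which cluster spans also overlapped, are not among the 13. MIR24-1 and MIR3074, which lie on opposite strands of the same stretch, were under a peak of 1319 bp with a score of 99.3 (chr9:95085705-95087023). MIR27B and MIR23B were in the gaps, 164 bp and 283 bp from the nearest peak. Their cluster, inside AOPEP, which encodes an aminopeptidase, held 9 peaks covering 13226 bp with 1 of 100 or more, and its nearest H3K4me3 was 7136 bp away. MIRLET7G was under a peak of 1689 bp with a score of 115 (chr3:52268068-52269756). The 19 mature miRNAs from the 13 hairpins had 19 different seeds. MIR587, MIR3170, MIR4316 and MIR6889 lay in gaps of clusters among the 25 with most covered length.

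Of the 3 promoter windows printed above, that of EPHX3, an epoxide hydrolase gene, lay in a peak of 4197 bp with a score of 1748, and H3K4me3 was 8556 bp away. The windows of TC2N and of SYNJ2, which encodes a phosphoinositide phosphatase, lay in peaks of 1510 bp and 1152 bp with scores of 125 and 32.5, with H3K4me3 30102 bp and 12672 bp away. They held 14, 1 and 6 CpG dinucleotides, and 63%, 50% and 57% of their bases were G or C. Across all 15100 windows, the median was 22 CpG with a G and C content of 63%, and the 34 windows in cluster spans that carried both marks had a median of 29 CpG and 69.8%. The TEAD letters occurred in 11.7% of all windows on either strand and the RUNX letters in 10.8%, without overlap between motifs in the printed windows. The other motifs searched were TGANTCA for AP-1, AACCGGTT for GRHL, GCCNNNGGC for AP-2, TGTTTAC for forkhead factors, CGTGGGAA for RBPJ and CCGGAAGT for ETS factors, which occurred in 5.7%, 0.132%, 28.6%, 2.64%, 0.921% and 6.3% of all windows. Starts lay in a cluster span for 49 of the genes with a window, and 34 of these carried both marks on the window, 2 H3K4me3 alone, 4 H3K27ac alone and 9 neither.

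The clusters were spread unevenly over the chromosomes. On chromosome 22, 15 clusters held 158 of 1042 H3K27ac peaks without H3K4me3 (15.2%), and on chromosome 14, 14 clusters held 157 of 1304 (12%), beside 5.05% over all autosomes. Chromosomes 17 and 19 had 9.85% and 8.49%. Chromosome 8 had 2 clusters, at TRPS1 and RAB11FIP1, with 1.95% of its peaks, and chromosomes 20 and 3 had 2.63% and 2.66%. Copy number in the line was not measured here.

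**Figure D5:**
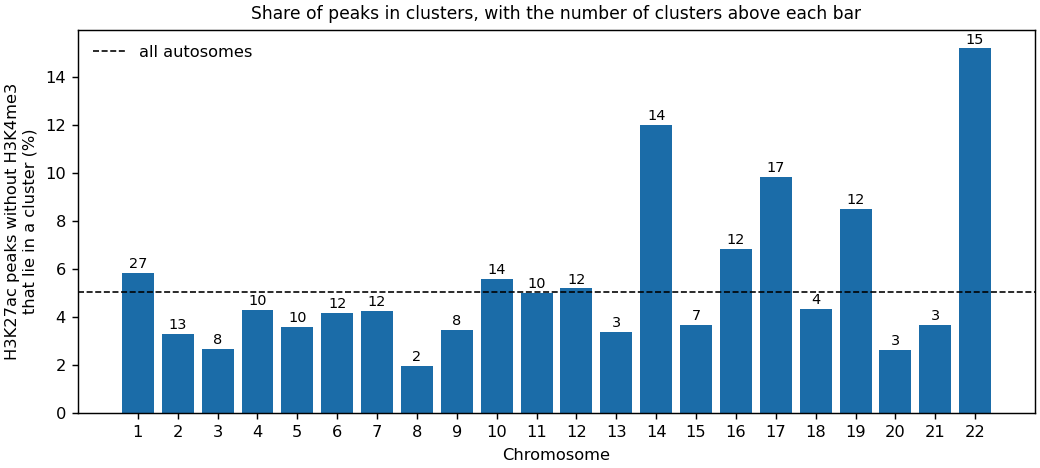
Share in percent of the H3K27ac peaks without H3K4me3 on each autosome that lie in a cluster, with the number of clusters above each bar and a dashed line at the 5.05% of all autosomes. Chromosomes 22 and 14 are highest with 15.2% and 12%, and chromosome 8 is lowest with 1.95%.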

How the data were processed

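H3K27ac and H3K4me3 were each profiled by chromatin immunoprecipitation and sequencing in 1 library of HCC1599 cells, beside an input. Per the labels' protocols, formaldehyde-fixed chromatin was fragmented by sonication and micrococcal nuclease. The submitters' processing notes name Bowtie2, MACS 1.4 and hg38; their parameters, and the version of Bowtie2, are not given in the sources used here. The authors deposited 1 peak list per mark with a score for each peak, whose unit is not stated; it served to describe, order and filter peaks inside each list. Read depth is unknown from these lists, so a site without a peak is one where none was called. Nuclease digestion and the caller's joining of neighbouring peaks can both affect how many peaks a stretch holds.

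Peaks on chromosomes 1 to 22 were used, with positions counted from 1; 1852 H3K27ac and 971 H3K4me3 peaks lay elsewhere. Gene positions were those of RefSeq on GRCh38.p14, the assembly also called hg38, with 19122 autosomal protein-coding genes; promoter windows, which give strand and start, existed for 15100 of these and for 199 of the 247 overlapped genes. Each mark at a gene was called within 1 kb of either outer end, so a gene with both marks can have them at opposite ends. Named genes are those at the 25 clusters of largest covered length, the 10 with most peaks or longest span, genes with 2 or more clusters, members of 17 lists that a cluster overlaps or lies nearest, and those of up to 5 groups on each side of 8 peaks; others were chosen after their values were seen. The members and lists were chosen with earlier results of these data known. Of 368 list genes, 5 were not on these chromosomes. Computations used Python 3.11.15, numpy 2.4.6, pandas 2.3.3, scipy 1.17.1 and matplotlib 3.10.9. Against joining with bedtools 2.31.1 the number of clusters that differed was 0, and the joining was tested on simulated data. Alternatives covered the score, the overlap, the joining distance, the number of peaks, the splitting of peaks, gene ends and H3K4me3 in gaps. Peak sequences were not analysed here, and 1 cluster that the rule for named genes covers is not reported here.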

Additional observations from a re-analysis of the deposited data

How the results depend on the processing

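The number of clusters depends on each choice. As reported there were 228 clusters with 2340 peaks, 3.02 Mb covered, 247 protein-coding genes overlapped, 20 of them in the lists, and 86.8% of clusters overlapping such a gene; the values below are in that order. With H3K27ac scores of at least 50 there were 31 clusters, 275 peaks, 0.492 Mb, 36 genes, 3 in the lists and 96.8%. With scores of at least 100 there were 3 clusters, 25 peaks, 0.0659 Mb, 2 genes, 0 in the lists and 66.7%. With H3K4me3 counted only from a score of 100 there were 356 clusters, 3743 peaks, 5.58 Mb, 369 genes, 24 in the lists and 83.7%. With 50% of a peak covered by H3K4me3 before it was left out there were 407 clusters, 4522 peaks, 8.24 Mb, 453 genes, 26 in the lists and 84%. With a joining distance of 5 kb there were 33 clusters, 304 peaks, 0.409 Mb, 31 genes, 3 in the lists and 84.8%. With 20 kb there were 491 clusters, 5417 peaks, 6.95 Mb, 660 genes, 44 in the lists and 86.6%. With 6 or more peaks there were 620 clusters, 4826 peaks, 6.18 Mb, 582 genes, 32 in the lists and 80.3%. With 10 or more there were 98 clusters, 1242 peaks, 1.53 Mb, 104 genes, 8 in the lists and 86.7%. With peaks less than 500 bp apart merged there were 96 clusters, 945 peaks, 1.5 Mb, 108 genes, 7 in the lists and 88.5%. Without peaks within 2.5 kb of a gene end there were 121 clusters, 1205 peaks, 1.49 Mb, 110 genes, 13 in the lists and 86%. With groups broken at an H3K4me3 peak there were 120 clusters, 1139 peaks, 1.48 Mb, 116 genes, 9 in the lists and 83.3%. Leaving out peaks with H3K4me3 within 1 kb gave 170 clusters, 1711 peaks, 2.2 Mb, 168 genes, 17 in the lists and 83.5%, the number of clusters nearest to that reported. The share of clusters at a protein-coding gene lay within the interval of the reported share in 9 of the 12 settings. The settings draw on the same peaks and the interval allows for counting error alone, so this does not measure how stable the share is. Of the 25 clusters with most covered length, 11 were among the top 25 by span, 9 by number of peaks and 15 by summed score. Under the 8 stricter settings, 2 of the 228 clusters overlapped a cluster in all 8, 6 in 7, and 17 in none; that of MARCO did so in 2. By construction, the settings on score, overlap, merging and gene ends change which peaks enter, and those on joining distance, number of peaks and breaks at H3K4me3 change how they are grouped or kept. No paired analysis was possible because each mark has 1 library. Depth, copy number and the difference between repeat libraries are unknown here, and the weakest peaks, which many clusters need to reach 8, are those nearest the caller's threshold.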
